A study of Mus musculus with 16 samples.

Results

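The transcription factor gene Myc and 35 genes of ribosome production were followed through hearts of mice given doxorubicin, with or without nicotinamide mononucleotide (NMN). The 36 genes were named one by one, by symbol, from roles known in the making of ribosomes. All 36 were found, each under a single identifier, among the 30884 genes of the deposited tables, and all 36 had enough counts to be tested.

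The hearts came from wild-type C57BL/6 males aged 8 weeks, with 4 libraries in each of 4 groups, and were taken 5 days after the injections. All injections went into the abdomen. Every mouse first received either NMN, a precursor of the coenzyme NAD, at 500 mg/kg, or saline, and 30 min later either a single dose of doxorubicin at 15 mg/kg or saline. Doxorubicin is an anthracycline used against cancer that can injure heart muscle. The groups are called sham vehicle (saline, then saline), sham NMN (NMN, then saline), doxorubicin vehicle (saline, then doxorubicin) and doxorubicin NMN (NMN, then doxorubicin).

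Total counts ran from 13927970 to 16400069 per library. The 7 heart muscle markers summed to 16400 CPM (a gene's counts scaled to a common library total) or more in every library. The libraries also divide along a line that no label gives, set where the mean log2 CPM of Scand1, Cox11 and Mrps34 has its widest gap. On 1 side, the second part, are 6 libraries: sham vehicle 3 and 4, doxorubicin vehicle 3 and 4, and replicate 4 of each NMN group. The first part holds the other 10. Values within the parts are given where they matter; in the second part the NMN groups hold 1 library each, which the fit takes to vary like the others. Nothing in the labels says more of the replicates than their number, so the spread behind each p-value is that between these libraries and may be technical.

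Myc is a basic helix-loop-helix factor that pairs with Max, binds the E-box CACGTG and raises transcription of ribosomal RNA and of the factors that process it. In the nucleolus RNA polymerase I makes the long precursor of ribosomal RNA, small nucleolar ribonucleoproteins (snoRNPs) guide its chemical marking, and sets of assembly factors cut and fold it into the small and the large subunit. Heart muscle cells no longer divide in the adult and keep Myc low, and the gene is known to rise early when the heart is stressed.

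Myc (ENSMUSG00000022346.16, build GRCm38, chr15:61985391-61990374, plus strand) had the largest log2 fold of the 36 genes in both doxorubicin comparisons. Its level was 1.87, 3.08, 1.45 and 3.47 CPM in the sham vehicle libraries and 38.2, 25.1, 40.6 and 41.8 in doxorubicin vehicle. With NMN, it was 2.67, 2.60, 3.16 and 2.20 CPM in sham mice and 7.90, 3.55, 2.51 and 3.52 in doxorubicin mice. The 4 doxorubicin vehicle libraries lay above all others without overlap. Of the doxorubicin NMN libraries 3 lay above all 8 sham libraries, replicates 2 and 4 only just (3.55 and 3.52 against 3.47). Replicate 3 lay within the range of both sham groups. The doxorubicin vehicle level was 14.9-fold that of sham vehicle (log2 fold 3.89, SE 0.324, edgeR quasi-likelihood adjusted p = 5.08e-07), and doxorubicin NMN was lower than doxorubicin vehicle by 3.10 on the log2 scale (log2 fold -3.10, SE 0.308, adjusted p = 6.81e-06). Within the parts of the split the rise was 3.62 in the first and 4.10 in the second. Per length of transcript, Myc had the lowest level of the 36 genes in sham vehicle, 0.907 FPKM (the deposited values, which also divide by transcript length), and the ninth in doxorubicin vehicle, 13.4 FPKM.

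**Figure D1:**
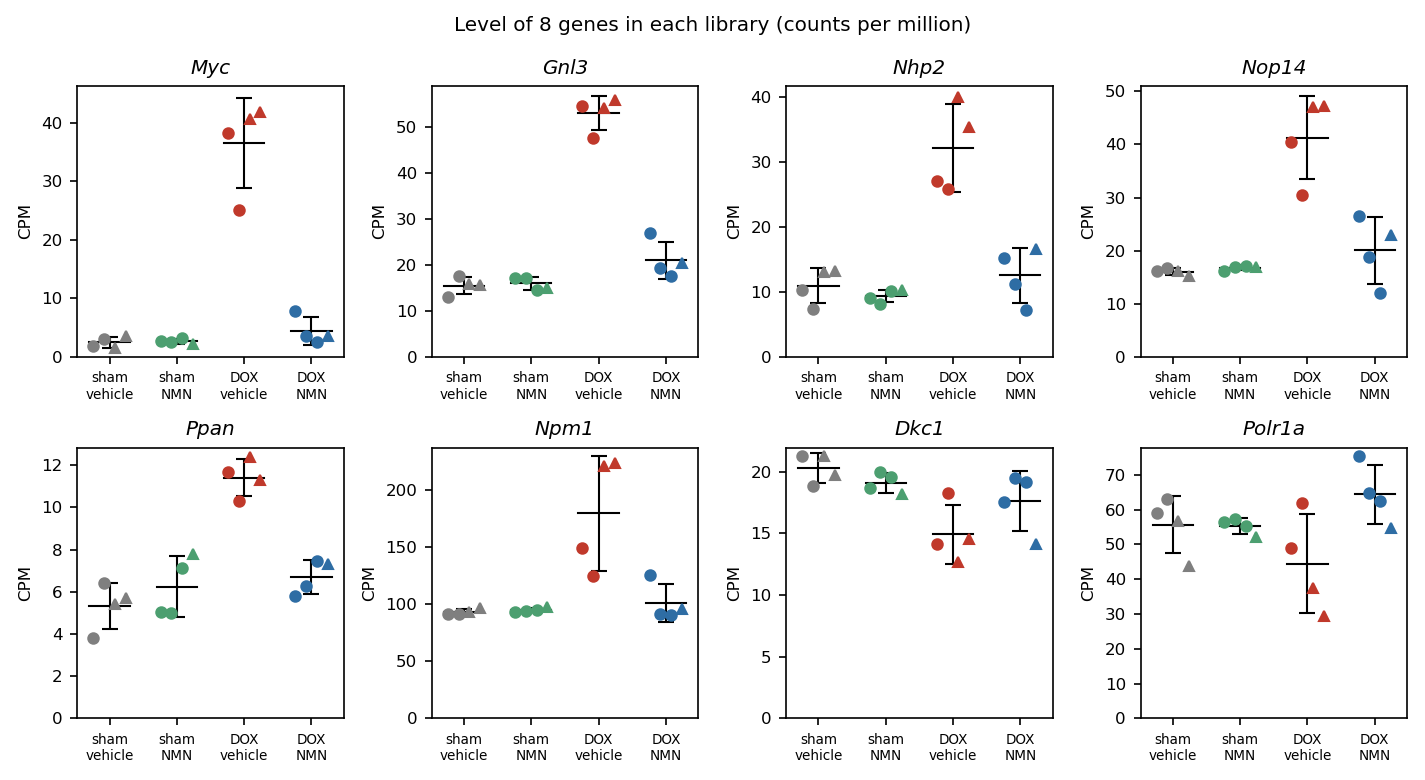
Level of 8 genes (y axis, CPM, from 0) in the 16 libraries by group (x axis; DOX, doxorubicin). Coloured points are libraries in replicate order, circles of the first and triangles of the second part of the split, and black lines are the mean and SD of 4 libraries. Myc stands at 25.1 to 41.8 CPM in the 4 doxorubicin vehicle libraries and at 7.90 or below in the other 12, while Dkc1 and Polr1a are not raised.

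The E-box letters CACGTG were looked for in the promoter windows of the genes, 300 bases from 250 before to 50 after the start, in the RefSeq table of build GRCm38.p6. The motif reads the same on both strands. Windows were matched by symbol for 29 of the 36 genes, all but Myc, Tcof1, Fbl, Rrp12, Bop1, Rrs1 and Npm1. The letters stood in the windows of 7 of 29 genes (24.1%), against 8.09% of the 27025 genes with a window, 11.6% of the 10804 of these genes that were tested for expression and 28 of 114 (24.6%) of the further listed genes described at the end. Counted by window, 7.15% of 32851 held them. The matches are shown with up to 12 bases on each side inside the window, 5′ to 3′ along the gene, with the E-box in capitals.
Wdr43, chr17:71616220-71616249, plus strand: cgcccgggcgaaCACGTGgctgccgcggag
Pes1, chr11:3963965-3963994, plus strand: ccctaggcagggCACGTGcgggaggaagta
Mybbp1a, chr11:72441355-72441376, plus strand: gtcttctgagccCACGTGtttg
Grwd1, chr7:45830740-45830767, minus strand: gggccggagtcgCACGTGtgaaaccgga
Nle1, chr11:82908355-82908384, minus strand: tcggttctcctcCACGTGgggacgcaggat
Nop2, chr6:125131811-125131840, plus strand: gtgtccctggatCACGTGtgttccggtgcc
Utp20, chr10:88826765-88826789, minus strand: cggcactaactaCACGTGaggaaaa
In Wdr43, Pes1, Mybbp1a, Grwd1, Nle1 and Utp20 the first base of the motif lay 18, 3, 41, 35, 24 and 38 bases into the transcript, counted from 1 at the start, and in Nop2 it lay 60 bases before it. Of these 7 genes, 6 were called higher in doxorubicin vehicle, all but Utp20, as were 17 of the 22 without these letters. The windows of Wdr43, which holds the motif and rose by 1.27 on the log2 scale, and of Gnl3, which lacks these letters and rose by 1.78, are given whole.
Wdr43, chr17:71615965-71616264, plus strand: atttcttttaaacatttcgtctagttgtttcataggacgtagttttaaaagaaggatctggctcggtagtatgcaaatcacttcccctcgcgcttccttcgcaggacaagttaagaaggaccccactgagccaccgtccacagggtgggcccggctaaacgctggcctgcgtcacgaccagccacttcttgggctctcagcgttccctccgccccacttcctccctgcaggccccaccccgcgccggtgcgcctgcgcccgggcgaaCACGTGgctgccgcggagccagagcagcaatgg
Gnl3, chr14:31019082-31019381, minus strand: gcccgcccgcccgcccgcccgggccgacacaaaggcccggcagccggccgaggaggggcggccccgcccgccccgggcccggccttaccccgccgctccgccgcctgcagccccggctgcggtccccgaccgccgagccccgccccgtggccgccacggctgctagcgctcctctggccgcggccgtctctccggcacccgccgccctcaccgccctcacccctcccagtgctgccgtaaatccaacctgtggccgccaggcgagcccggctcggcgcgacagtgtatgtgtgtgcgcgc

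With doxorubicin alone, most of these genes were higher at 5 days. Of 36 genes, 29 were higher in doxorubicin vehicle than in sham vehicle, where 24.8% of all 14716 genes tested were called higher, and 1 was lower (23.9% of all genes; 48.7% in either direction). The median log2 fold was 0.681 over the 36 genes and 0.00539 over all genes tested, and the 9 genes with a log2 fold above 1 were Myc, Gnl3, Nhp2, Nop14, Wdr43, Rrp12, Gar1, Ppan and Ddx21. For 25 genes every doxorubicin vehicle library lay above every sham vehicle library, as for 21.7% of all genes. The 36 genes together made up 992 ± 10.9 CPM in sham vehicle and 1701 ± 160 in doxorubicin vehicle (SD, n = 4). In whole-heart RNA, fewer cells of a type and less RNA per cell cannot be told apart.

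**Figure D2:**
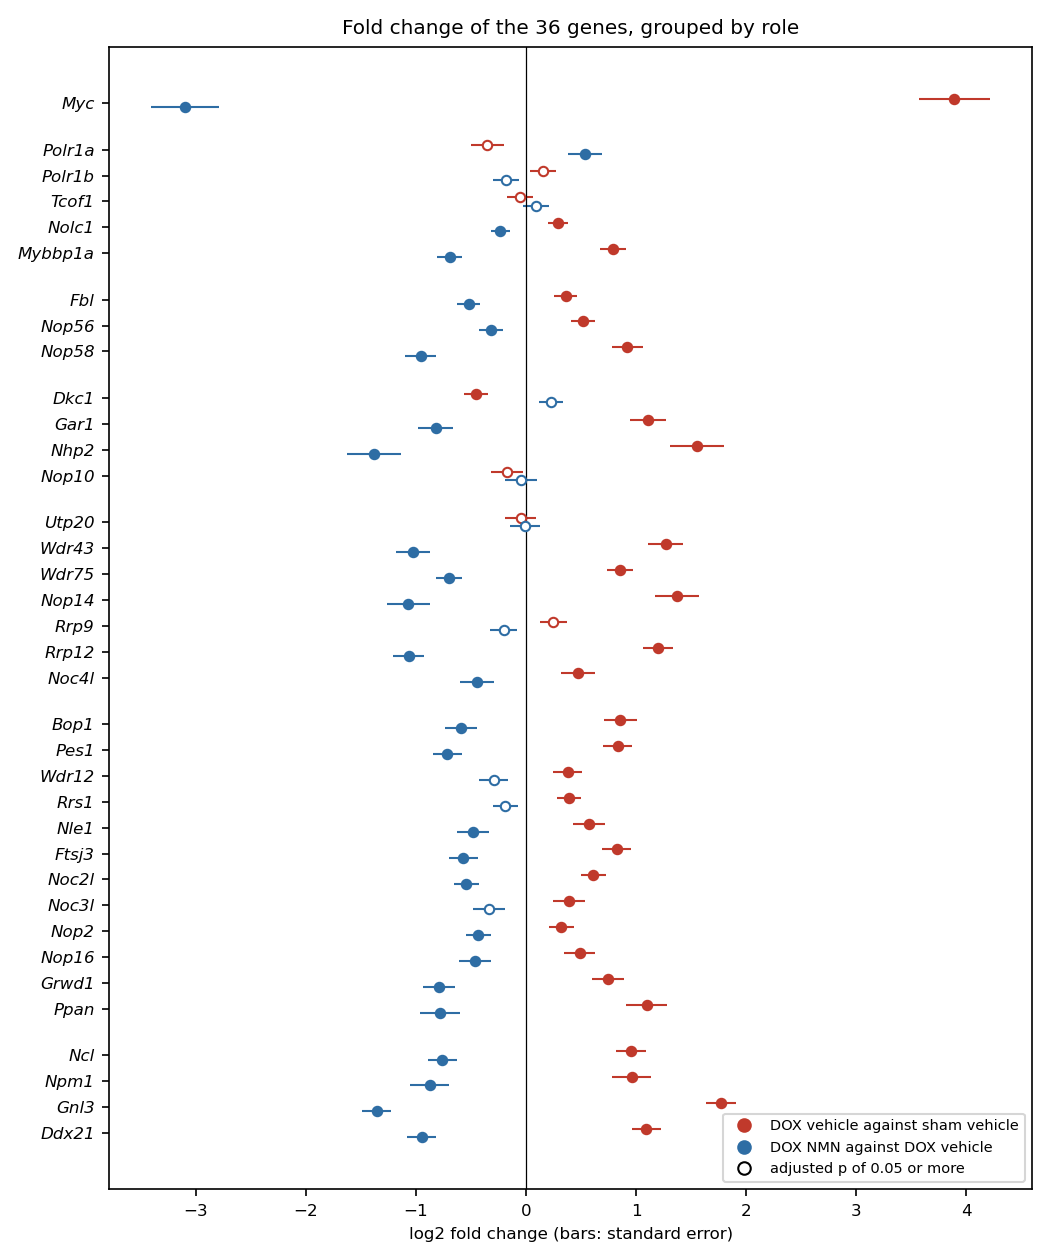
Log2 fold change (x axis) of the 36 genes (y axis, grouped by role) in doxorubicin vehicle against sham vehicle (red) and in doxorubicin NMN against doxorubicin vehicle (blue). Points are fitted values, bars their standard errors, and open points did not pass. The red points lie to the right of 0 for 31 genes and the blue points to the left for 33.

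The RNAs of the nucleolar proteins Gnl3, Ncl, Npm1 and Ddx21 were all higher. Gnl3 (nucleostemin; ENSMUSG00000042354.7, chr14:31012433-31019152, minus strand), a GTP-binding protein of the nucleolus, read 13.0, 17.6, 15.8 and 15.7 CPM in sham vehicle, 17.3, 17.3, 14.6 and 15.0 in sham NMN, 54.7, 47.8, 54.3 and 55.9 in doxorubicin vehicle and 26.9, 19.3, 17.7 and 20.5 in doxorubicin NMN. The doxorubicin vehicle libraries were the highest by a wide gap, and the 4 doxorubicin NMN libraries also lay above all 8 sham libraries. Its rise was 3.42-fold (log2 fold 1.78, SE 0.137, adjusted p = 3.45e-07), and its fall with NMN was -1.36 (SE 0.135, adjusted p = 6.81e-06). Ncl (nucleolin), which binds the ribosomal RNA precursor, read 217, 213, 197 and 190 CPM in sham vehicle, 201, 206, 216 and 224 in sham NMN, 370, 325, 445 and 436 in doxorubicin vehicle and 299, 217, 208 and 227 in doxorubicin NMN. All 4 doxorubicin vehicle libraries were above the rest, and replicate 1 of doxorubicin NMN stood above its group (log2 folds 0.95, SE 0.132, and -0.76, SE 0.131). Npm1 (nucleophosmin), a chaperone of ribosome export, had the highest FPKM of the 36 genes, 35 in sham vehicle and 67.4 in doxorubicin vehicle (log2 fold 0.96, SE 0.177). Ddx21, an RNA helicase of the nucleolus, rose by 1.09 (SE 0.132). With NMN these last genes changed by -0.87 and -0.95.

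Among the genes of RNA polymerase I transcription the picture was mixed, with 2 of 5 higher and none lower, against 24.8% and 23.9% of all genes. With 5 genes, 2 do not set this group apart from that share. Mybbp1a, a nucleolar Myb-binding protein that takes part in ribosomal RNA synthesis, read 67.3, 64.8, 64.7 and 65.0 CPM in sham vehicle, 61.8, 67.1, 66.3 and 74.3 in sham NMN, 107, 99.4, 128 and 118 in doxorubicin vehicle and 88.6, 69.2, 67.7 and 59.4 in doxorubicin NMN. It rose in every doxorubicin vehicle library (log2 fold 0.79, SE 0.116) and was lower with NMN (-0.69, SE 0.116). Polr1a (ENSMUSG00000049553.11, chr6:71909053-71984935, plus strand), the largest subunit of the polymerase, read 59.0, 63.2, 56.9 and 43.9 CPM in sham vehicle, 56.5, 57.2, 55.2 and 52.2 in sham NMN, 49.0, 62.0, 37.6 and 29.4 in doxorubicin vehicle and 75.6, 64.8, 62.5 and 54.9 in doxorubicin NMN. The lowest libraries were replicates 3 and 4 of doxorubicin vehicle, and the groups overlapped. Its log2 fold with doxorubicin was -0.35 (SE 0.151, adjusted p = 0.0628), and it was called lower without replicate 4 of sham vehicle (adjusted p = 0.0244) or replicate 2 of doxorubicin vehicle (adjusted p = 0.00585). With NMN it was the only one of the 36 genes called higher than in doxorubicin vehicle (log2 fold 0.54, SE 0.151, adjusted p = 0.0115), where 17.5% of all genes were. Nolc1, a chaperone of snoRNPs that also binds the polymerase, rose by 0.29 (SE 0.0875, adjusted p = 0.0114). Polr1b, the next largest subunit, and Tcof1 (treacle), which binds ribosomal DNA, had log2 folds of 0.15 (SE 0.117) and -0.06 (SE 0.116) and did not pass.

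The RNAs for the core proteins of the box C/D snoRNPs, which guide the methylation of ribosomal RNA, were all higher. Nop58, a scaffold protein, read 15.5, 16.2, 18.2 and 18.8 CPM in sham vehicle, 13.2, 17.6, 15.9 and 19.2 in sham NMN, 28.7, 30.5, 34.5 and 36.5 in doxorubicin vehicle and 20.8, 16.1, 16.3 and 15.1 in doxorubicin NMN. Its doxorubicin vehicle libraries stood apart from the other 12 (log2 fold 0.92, SE 0.139). Fbl (fibrillarin), the methyltransferase, read 20.1, 16.5, 18.9 and 20.1 CPM in sham vehicle, 15.4, 16.7, 16.7 and 18.4 in sham NMN, 21.1, 26.3, 25.0 and 24.9 in doxorubicin vehicle and 17.7, 18.1, 15.4 and 17.2 in doxorubicin NMN. Here the gap was small, with the lowest doxorubicin vehicle library just above the highest sham library (log2 fold 0.36, SE 0.105). Nop56, the partner of Nop58, rose by 0.52 (SE 0.109).

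In the box H/ACA snoRNPs, which guide the conversion of uridine to pseudouridine, partners moved apart. Nhp2, a core RNA-binding protein, read 10.2, 7.42, 13.0 and 13.2 CPM in sham vehicle, 9.10, 8.204, 10.1 and 10.2 in sham NMN, 27.1, 25.9, 40.1 and 35.4 in doxorubicin vehicle and 15.2, 11.2, 7.18 and 16.6 in doxorubicin NMN. Doxorubicin vehicle was 2.94-fold above sham vehicle without overlap (log2 fold 1.55, SE 0.248, adjusted p = 0.00012). Dkc1 (dyskerin; ENSMUSG00000031403.14, chrX:75095854-75109777, plus strand), the enzyme of the complex, read 21.3, 18.9, 21.3 and 19.8 CPM in sham vehicle, 18.7, 19.99, 19.5 and 18.2 in sham NMN, 14.2, 18.3, 12.7 and 14.6 in doxorubicin vehicle and 17.6, 19.5, 19.2 and 14.2 in doxorubicin NMN. It was the only gene of the 36 called lower with doxorubicin, to 72.9% of sham vehicle (log2 fold -0.46, SE 0.110, adjusted p = 0.00291) without overlap between these groups, while replicate 2 lay within the range of sham NMN. In the first part of the split alone its log2 fold was -0.38 and did not pass (adjusted p = 0.0619). Gar1, another core protein, rose by 1.11 (SE 0.164), and Nop10, the smallest, had a log2 fold of -0.17 (SE 0.145) and did not pass. Within the parts Nop10 changed sign, with 0.17 in the first and -0.49 (adjusted p = 0.00112) in the second, and in the second part alone it was higher with NMN before doxorubicin (0.40, adjusted p = 0.0177).

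Of the 7 small subunit factors, 5 were higher and none lower, against 24.8% and 23.9% of all genes. Nop14, which joins the early small subunit particle, read 16.2, 16.8, 16.1 and 15.3 CPM in sham vehicle, 16.2, 16.9, 17.2 and 16.9 in sham NMN, 40.4, 30.5, 47.0 and 47.3 in doxorubicin vehicle and 26.6, 18.8, 12.0 and 22.9 in doxorubicin NMN. The sham libraries were nearly level, doxorubicin vehicle was far above them, and the doxorubicin NMN libraries spread to both sides of the sham range (log2 folds 1.37, SE 0.198, and -1.07, SE 0.196). Utp20, a scaffold of the same particle, read 20.3, 21.1, 19.4 and 20.9 CPM in sham vehicle, 21.2, 22.0, 23.4 and 18.7 in sham NMN, 16.1, 20.3, 21.1 and 21.5 in doxorubicin vehicle and 24.9, 19.0, 21.1 and 15.1 in doxorubicin NMN. All 4 groups overlapped, with log2 folds of -0.05 (SE 0.138) and -0.01 (SE 0.138). Wdr43 and Wdr75, which enter the particle as it forms on the growing transcript, rose by 1.27 (SE 0.156) and 0.86 (SE 0.117), Rrp12, an export factor in yeast, by 1.20 (SE 0.139), and Noc4l, the partner of Nop14, by 0.47 (SE 0.155). Rrp9, a protein of the U3 snoRNP, had a log2 fold of 0.25 (SE 0.122, adjusted p = 0.103) and passed without replicate 2 of doxorubicin vehicle (adjusted p = 0.0276). The call of Noc4l was lost without replicate 2 of sham vehicle or without replicate 3 or 4 of doxorubicin vehicle (adjusted p = 0.0597 to 0.0703).

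All 12 large subunit factors were higher, by 0.32 to 1.10 on the log2 scale. Ppan, a factor of early large subunit assembly, read 3.803, 6.42, 5.40 and 5.70 CPM in sham vehicle, 5.03, 5.01, 7.12 and 7.81 in sham NMN, 11.7, 10.3, 12.4 and 11.3 in doxorubicin vehicle and 5.79, 6.25, 7.47 and 7.31 in doxorubicin NMN. Doxorubicin vehicle stood alone at the top (log2 fold 1.10, SE 0.186). Nop2, a methyltransferase of large subunit RNA, read 17.6, 17.5, 21.7 and 17.1 CPM in sham vehicle, 17.8, 19.3, 19.2 and 17.0 in sham NMN, 26.5, 26.8, 20.4 and 19.8 in doxorubicin vehicle and 20.5, 16.7, 17.6 and 14.9 in doxorubicin NMN. Only replicates 1 and 2 of doxorubicin vehicle rose clear of the sham range (log2 fold 0.32, SE 0.114). The PeBoW complex, needed to cut the large subunit precursor, had log2 folds of 0.86 for Bop1 (SE 0.149), 0.83 for Pes1 (SE 0.131) and 0.38 for Wdr12 (SE 0.134). Ftsj3, an RNA methyltransferase, rose by 0.82 (SE 0.133), Grwd1, a chaperone of a large subunit protein, by 0.75 (SE 0.146), and Nle1, a partner of the remodelling enzyme Mdn1, by 0.57 (SE 0.147). Noc2l and Noc3l, which travel with early particles in yeast, rose by 0.61 (SE 0.116) and 0.39 (SE 0.147), Nop16, a nucleolar assembly factor, by 0.49 (SE 0.145), and Rrs1, which brings in the 5S particle in yeast, by 0.39 (SE 0.113). The weakest of these calls were lost in some of the fits that left out a library. Wdr12 lost its call without replicate 1 or 2 of either group (adjusted p = 0.0611 to 0.0975), Noc3l without replicate 1, 2 or 3 of sham vehicle or 2 or 3 of doxorubicin vehicle (0.0534 to 0.139), and Nop2 without replicate 1, 2 or 4 of sham vehicle or 1 or 2 of doxorubicin vehicle (0.0613 to 0.0826).

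**Figure D3:**
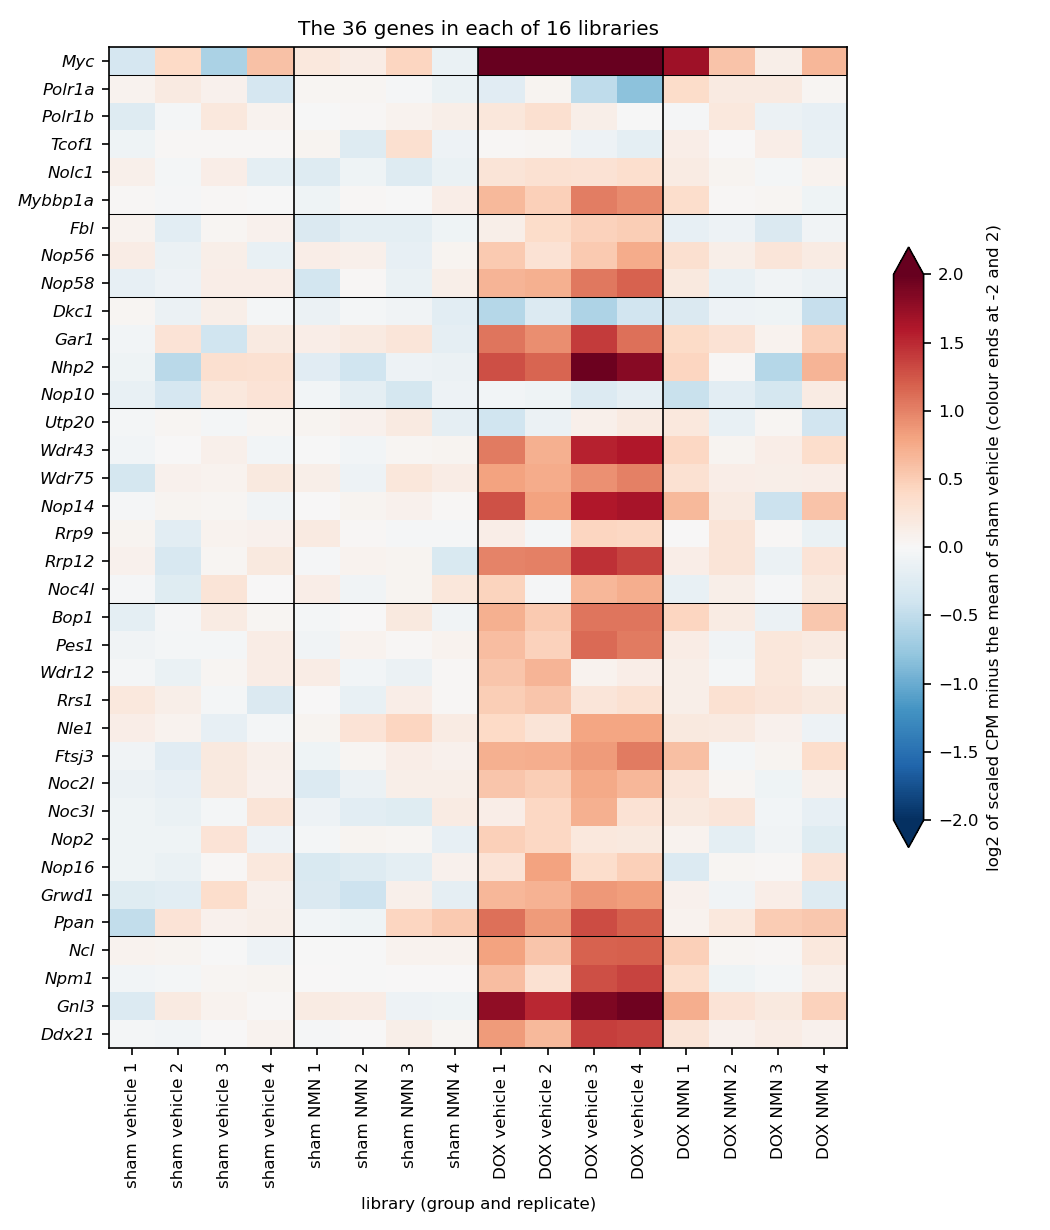
Log2 of scaled CPM of the 36 genes (rows, grouped by role) in the 16 libraries (columns), less the mean of the sham vehicle libraries; red is higher, blue lower, and colours end at -2 and 2. The doxorubicin vehicle columns are red for most rows, more so in replicates 3 and 4, and the blue or pale rows there include Dkc1, Polr1a, Tcof1 and Nop10.

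The division of the libraries ran through both vehicle groups. In sham vehicle, on scaled values, replicates 3 and 4 lay both above replicates 1 and 2 for 16 of the 36 genes, as for 27.4% of all genes, and both below for 3, as for 25.9%. In doxorubicin vehicle, replicates 3 and 4 were both the higher for 24 of the 36 genes, as for 34.3% of all genes, and both the lower for 7, as for 33.7%. Npm1 showed the widest gap upward, with 145, 116, 231 and 241 scaled CPM in replicates 1 to 4. Polr1a showed the widest gap downward, with 47.5, 57.6, 39.3 and 31.7, next to Wdr12, with 20.5, 22.3, 14.6 and 15.2. The other genes that were lower in replicates 3 and 4 were Polr1b, Tcof1, Nop10, Rrs1 and Nop2. Against sham vehicle, 23 of the 36 genes were called higher with the first part alone, where 13.6% of the 14967 genes tested in that fit were, and 26 with the second alone, where 30.6% of 15606 were. The calls of Nolc1, Fbl, Nop56, Noc4l, Nle1 and Noc3l were lost in the first part, and those of Wdr12, Nop2, Nop16 and Noc3l in the second. Nle1 had log2 folds of 0.219 (adjusted p = 0.379) in the first part and 0.885 in the second, and Wdr12 of 0.709 and -0.00627 (adjusted p = 0.971). Nop2 had 0.532 in the first part and 0.0919 (adjusted p = 0.597) in the second. Dkc1 was the gene called lower on all libraries; none was in the first part, and Polr1a, Dkc1 and Nop10 were in the second.

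**Figure D4:**
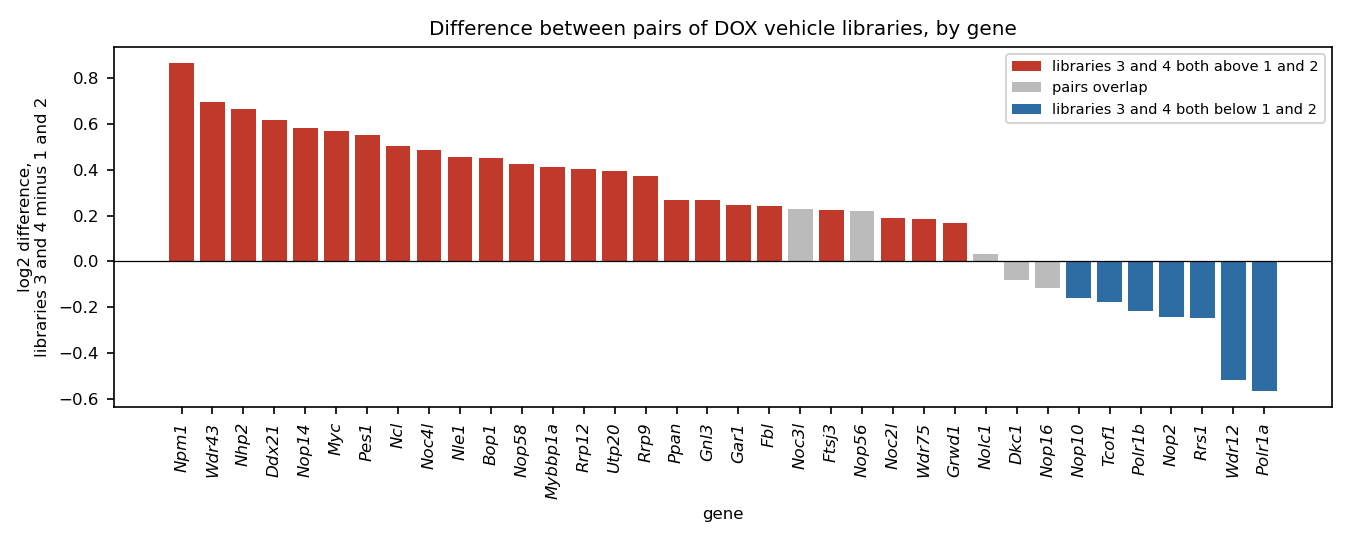
Difference in mean log2 scaled CPM between replicates 3 and 4 and replicates 1 and 2 of doxorubicin vehicle (y axis) for each of the 36 genes (x axis, in order of the difference). Colours tell whether both libraries of a pair lay above or below both of the other; the bars run from 0.86 for Npm1 to -0.57 for Polr1a.

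When NMN came before doxorubicin, most of the same genes were lower than with doxorubicin alone. Of 36 genes, 26 were called lower (18.8% of all genes tested) and Polr1a was called higher, with a median log2 fold of -0.557 against 0.00382 over all genes. All 26 were among the 29 called higher with doxorubicin, and both comparisons share the doxorubicin vehicle libraries, so the counts are not independent. For 22 genes every doxorubicin NMN library lay below every doxorubicin vehicle library, as for 14% of all genes. After Myc, the genes that fell furthest were Nhp2 (-1.38), Gnl3 (-1.36), Nop14 (-1.07), Rrp12 (-1.07) and Wdr43 (-1.03).

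Among the other small subunit genes, Wdr75 changed by -0.70, Noc4l by -0.45 and Rrp9 by -0.20, the last without passing. In the large subunit group, 9 of 12 fell, Grwd1 by 0.79, Ppan by 0.78, Pes1 by 0.71, Bop1 by 0.59, Ftsj3 by 0.57, Noc2l by 0.54, Nle1 by 0.48, Nop16 by 0.46 and Nop2 by 0.43. Wdr12 (-0.29), Noc3l (-0.34) and Rrs1 (-0.19) did not pass. In the box C/D snoRNPs the log2 folds were -0.96 for Nop58, -0.52 for Fbl and -0.31 for Nop56, and in the box H/ACA snoRNPs -0.82 for Gar1, with Dkc1 (0.23, adjusted p = 0.12) and Nop10 (-0.05) not passing. Of the polymerase genes, Nolc1 fell by 0.23 (adjusted p = 0.0462), while Polr1b (-0.18) and Tcof1 (0.09) did not pass. Standard errors of these folds ran from 0.0875 for Nolc1 to 0.246 for Nhp2, apart from Myc. Of these calls 5 were lost in some of the fits that left out a library. Nolc1 lost its call in 14 of 16 fits with a library left out, all but those without replicate 4 of sham vehicle or replicate 1 of doxorubicin NMN (adjusted p = 0.0507 to 0.151), and Nop56 without replicate 1, 3 or 4 of doxorubicin vehicle or 2, 3 or 4 of doxorubicin NMN (0.0532 to 0.123). Noc4l lost it without replicate 3 or 4 of doxorubicin vehicle or 1, 2 or 3 of doxorubicin NMN (0.0583 to 0.117), Nle1 without replicate 3 or 4 of doxorubicin vehicle (0.0642 and 0.0676), and Nop16 without replicate 2 of doxorubicin vehicle or 1, 2 or 3 of doxorubicin NMN (0.0512 to 0.0688). In the first part alone 21 of the 36 genes were called lower, where 10.8% of all genes were, and in the second 26, where 20.5% were. Nle1 moved from -0.172 (adjusted p = 0.473) in the first part to -0.882 in the second, Npm1 from -0.383 (adjusted p = 0.0541) to -1.22, and Nop16 from -0.623 to -0.131 (adjusted p = 0.596). Dkc1 was called higher without replicate 2 of doxorubicin vehicle (0.0424) or replicate 4 of doxorubicin NMN (0.0465), and Wdr12 and Noc3l were called lower without replicates 3 and 1 of doxorubicin vehicle (0.0435 and 0.0416).

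The doxorubicin NMN libraries were not alike. On scaled CPM, the mean of the 36 genes, as log2 above the sham vehicle mean, was 0.234, 0.0761, 0.0127 and 0.123 in replicates 1 to 4. In doxorubicin vehicle it was 0.633, 0.566, 0.835 and 0.831. Every doxorubicin NMN library lay below every doxorubicin vehicle library. The counts that follow are on CPM without this scaling. Replicate 1 held the highest value of its group for 22 of the 36 genes, replicate 4 the lowest for 17 and replicate 3 the lowest for 12. Scaling moved some of these places. On scaled CPM Bop1 read 26.5 in replicate 1 and 28.4 in replicate 4, and Nop56 was lowest in replicate 2 (25.37, against 25.94 in replicate 4). In replicate 1, 23 of 36 genes were above all 8 sham libraries, in replicates 2 to 4 it was 11, 7 and 11, while over all genes tested the shares were 28.2%, 15.4%, 8.47% and 17.5%.

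Against sham NMN, none of the 36 genes passed in doxorubicin NMN, and neither did any of the 14716 genes tested (0%). At an unadjusted p under 0.05 there were 3 of the 36 and 1223 of all genes, and DESeq2 called 0 of the 36 and 21 of all genes. With the first part alone, 0 of the 36 were called. With all libraries, the 5 genes with the smallest p were Gnl3 (log2 fold 0.39, SE 0.136), Nolc1 (0.25, SE 0.0881), Myc (0.70, SE 0.330), Rrs1 (0.21, SE 0.113) and Nhp2 (0.42, SE 0.252), with edgeR adjusted p from 0.51 to 0.677. Their log2 folds in the first part were 0.34, 0.262, 0.683, 0.216 and 0.258. In the second part, which held 1 library of each of these groups, they were 0.558, 0.213, 0.79, 0.177 and 0.81. The spread within the groups is not known there. For Gnl3 and Nolc1 the groups did not overlap, as for 3.15% of all genes in that direction. The median over the 36 genes was 0.115, against -0.000307 over all genes, and 29 had a positive fold.

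Between the sham groups no gene passed with all libraries. Of the 36 genes, 0 were called between sham NMN and sham vehicle, by edgeR as by DESeq2 (0 of all genes), and 1 had an unadjusted p under 0.05, against 0 (0%) and 342 of all genes tested. The smallest p belonged to Nolc1 (log2 fold -0.19, SE 0.0881, edgeR adjusted p = 1), Fbl (-0.19, SE 0.105), Nle1 (0.23, SE 0.148), Grwd1 (-0.20, SE 0.149) and Nop10 (-0.19, SE 0.145). Myc had a log2 fold of 0.09 (SE 0.344). Other fits called none of the 36 either, and of all genes 3 on unfiltered FPKM, 2 in the first part and 28 in the second. Between these groups 1.69% of all genes lay higher and 0.883% lower without overlap. The 36 genes made up 1002 ± 32.7 CPM in sham NMN, against 992 ± 10.9 in sham vehicle.

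The test of the interaction asks whether the doxorubicin effect differed with NMN. It did for 18 of the 36 genes, all with a smaller effect under NMN, where 8.96% of all genes tested were called in that direction, and 0 genes were called in the other (9.49%). The genes were Myc (-3.19, SE 0.457, adjusted p = 0.000589), Gnl3 (-1.38, SE 0.192, adjusted p = 0.000458), Mybbp1a, Nop58, Gar1, Nhp2, Wdr43, Wdr75, Nop14, Rrp12, Pes1, Nle1, Ftsj3, Noc2l, Ppan, Ncl, Npm1 and Ddx21. All 4 genes of the nucleolar protein group (Gnl3, Ncl, Npm1 and Ddx21) were among them, with 4 of 7 small subunit factors and 5 of 12 large subunit factors. The call was lost for Npm1, Nle1, Ftsj3, Nhp2 or Noc2l in 4 to 11 of the 16 fits that left out a library each (adjusted p = 0.0509 to 0.0941). All 5 lost it without replicate 3 or 4 of doxorubicin vehicle or replicate 3 of doxorubicin NMN. In the first part of the split alone the effect was lower with NMN for 8 of the 36 genes, where 4.45% of all genes tested were. Of these 8 genes, 7 were among the 18, and Nop2 was new. The calls of Ppan, Pes1, Nle1, Ftsj3, Nop58, Ncl, Gar1, Nop14, Mybbp1a, Npm1 and Noc2l were lost there.

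Further genes of the pathway were listed by role, again with earlier results of these data known. Over all genes tested, 24.8% were called higher and 23.9% lower with doxorubicin, and 18.8% lower with NMN than with doxorubicin alone. Of 40 other small subunit factors, 30 were higher with doxorubicin and 0 lower, and 29 were lower with NMN than with doxorubicin alone, with medians of 0.616 and -0.503. Mphosph10, a U3 partner, rose by 1.15 (SE 0.137), from 12.4 ± 0.613 to 27.3 ± 4.84 CPM, and the helicase Dhx37 by 0.72 (SE 0.107), Rrp7a by 0.68 (SE 0.104) and Fcf1, a nuclease family member, by 0.95 (SE 0.155). Of 40 other large subunit factors, 32 were higher and 2 lower, Rbm28 and Ddx55, both named after their values were seen, and 28 were lower with NMN, with medians of 0.589 and -0.53. Eif6, which keeps subunits apart, rose by 1.03 (SE 0.126), and Las1l, a nuclease, by 1.11 (SE 0.139). The helicases Ddx24 and Ddx27 rose by 0.89 (SE 0.121) and 1.44 (SE 0.209). In snoRNP assembly 6 of 10 were higher and 1 lower. Ruvbl1, an ATPase, rose by 0.69 (SE 0.130), while its partner Ruvbl2 fell by 0.52 (SE 0.118), and Nufip1 and Rpap3, which work with them, rose by 0.67 (SE 0.128) and 0.84 (SE 0.161).

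In the rest of the RNA polymerase I machinery 6 of 13 genes were higher with doxorubicin and 1 lower, against 24.8% and 23.9% of all genes. Taf1d and Taf1a, of the promoter selectivity factor, rose by 1.32 (SE 0.191) and 0.72 (SE 0.118), and Twistnb, a polymerase subunit, by 0.64 (SE 0.130), while the subunit Polr1e fell by 0.54 (SE 0.149). In the Myc network 6 of 11 tested genes were higher and 2 lower, the latter near the 23.9% of all genes. Fbxw7, which marks the Myc protein for breakdown, went from 63.8 ± 6.74 to 28.1 ± 10.2 CPM with doxorubicin (SD, n = 4; log2 fold -1.22, SE 0.164) and stood at 52.5 ± 3.39 with NMN before it. The Myc antagonists Mxi1 and Mnt rose by 0.79 (SE 0.137) and 0.62 (SE 0.147), Mlxip, a glucose sensor of the network, rose by 0.71 (SE 0.115), and Mycn, named after its values were seen, was lower by 2.38 (SE 0.612). Of 15 targets of Myc outside ribosome production, 4 were higher, near the 24.8% of all genes, and 6 lower, against 23.9%. Impdh2, of guanine nucleotide synthesis, and Pa2g4, a growth regulator, rose by 0.99 (SE 0.154) and 0.82 (SE 0.139), while the cap-binding factor Eif4e fell to 50% (log2 fold -0.9999, SE 0.0962) and the cyclin Ccnd2 fell by 1.30 (SE 0.159). Eif4e read 159 ± 4.15 CPM in sham vehicle, 80.8 ± 17.3 in doxorubicin vehicle and 145 ± 14.0 in doxorubicin NMN.

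**Figure D5:**
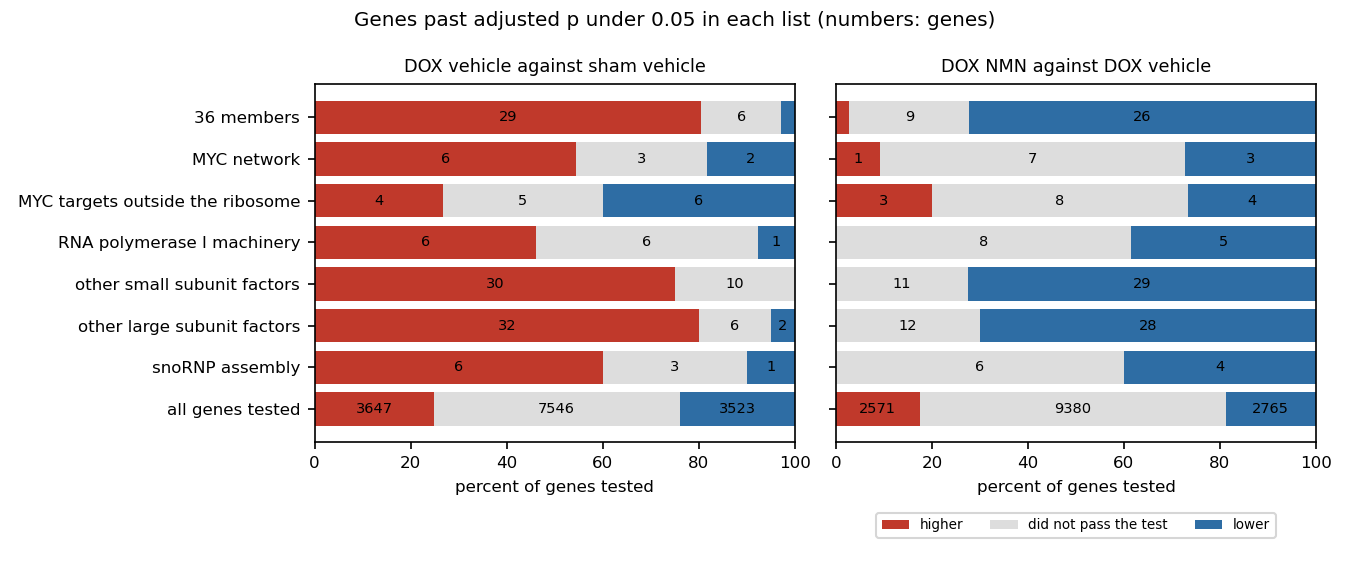
Share of the genes tested (x axis, percent) called higher (red), called lower (blue) or not passing (grey) in each list (y axis), for doxorubicin vehicle against sham vehicle (left) and doxorubicin NMN against doxorubicin vehicle (right); numbers are genes. The 36 genes and the other small and large subunit factors show 29, 30 and 32 genes higher on the left and 26, 29 and 28 lower on the right; of the 15 Myc targets outside ribosome production, 4 are higher and 6 lower on the left.

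Markers of some cell types differed between the same groups. The summed level of 7 heart muscle markers was 53600 to 59600 CPM in sham vehicle, 53700 to 57500 in sham NMN, 16400 to 22100 in doxorubicin vehicle and 31400 to 54300 in doxorubicin NMN. Myh6, the largest of them, read 24700 to 31900 CPM in sham vehicle and 2600 to 4750 in doxorubicin vehicle. With doxorubicin 6 of the 7 were called lower, where 23.9% of all genes were. Tnnt2 went the other way, from 6400 to 7220 CPM to 7040, 7110, 10700 and 11100. The 5 neutrophil markers summed to 1.32 to 5.42 CPM in sham vehicle, 33.4 to 88.9 in doxorubicin vehicle and 4.96 to 15.4 in doxorubicin NMN, and 4 erythroid markers to 337 to 542, 0.39 to 2.38 and 0.387 to 314. Replicate 3 of doxorubicin NMN gave the top of the last range. There Hbb-bs read 173 CPM, against 2.68, 0 and 0.457 in replicates 1, 2 and 4. Mitochondrial transcripts made up 25.3 to 27.4% of counts in sham vehicle, 21.6 to 23.8% in doxorubicin vehicle and 24.6 to 26.8% in doxorubicin NMN. The part of these differences in the rise and fall of the 36 genes was not tested. Macrophage markers summed to 177 to 228 CPM in sham vehicle and 142 to 239 in doxorubicin vehicle, fibroblast markers to 561 to 785 and 681 to 1010, endothelial markers to 665 to 845 and 704 to 899, and the markers of dividing cells to 3.54 to 13.3 and 1.30 to 3.32. These sums hide markers that moved apart. With doxorubicin 1 of 5 fibroblast markers was called higher and 2 lower (24.8% and 23.9% of all genes). Dcn went from 396 to 535 CPM to 571 to 922, and Lum from 49.6 to 90.7 to 10.4 to 28.1. Of 5 endothelial markers 2 were called higher and 0 lower. In replicates 3 and 4 of doxorubicin vehicle Esam read 176 and 156 CPM, and Kdr 89.9 and 77.1, against 227 and 241 for Kdr in sham vehicle. B cell markers were at or below 2.58 CPM and T cell markers at or below 1.27 in every library of these groups, atrial markers ran from 11.2 to 218 and from 10.2 to 17.0, and no marker was at 0 in all libraries of a group.

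The genes lay on many chromosomes, with 6 on chromosome 11 (Mybbp1a, Nhp2, Pes1, Nle1, Ftsj3 and Npm1) and 5 on chromosome 1 (Nop58, Wdr75, Wdr12, Rrs1 and Ncl). Their spans ran from 1344 bases for Nop10 to 80198 for Utp20, and across the 36 genes span and log2 fold with doxorubicin had a Spearman rho of -0.142, against -0.0772 across 14705 tested genes. Nop56, Nop58, Ppan, Ncl and Gnl3 hold snoRNA genes within their own annotated transcripts. Noc2l shares 20.9% of its exon bases with Samd11 on the other strand, which these libraries cannot tell apart, and Samd11 itself was listed at 0.0777 CPM or less in every group mean. Transcripts of Fbl, Nop56, Pes1, Wdr12, Noc2l, Npm1 and Ddx21 match other annotated genes at 95% identity or more over at least 200 bases, so reads could be split or lost there. For Npm1 these are 4 pseudogenes, of which the highest, Gm14681, read 1.76 ± 0.18 CPM in sham vehicle and 4.41 ± 1.9 in doxorubicin vehicle.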

How the data were processed

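Total RNA was taken with TRIzol and built into libraries by the NEBNext Ultra RNA kit, per the labels' protocols; that kit marks no strand. Reads were handled with HISAT2 2.1.0 and HTSeq 0.6.0 on GRCm38/mm10, per the submitters' processing notes. The annotation release and the strand setting are not named in those notes or labels. The authors deposited raw counts per gene and FPKM values for each of the 16 libraries.

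The counts of the 14716 genes kept by filterByExpr, of 30884, were scaled by TMM and fitted with edgeR 4.0.16 (R 4.3.3) by quasi-likelihood, with 4 group means over all 16 libraries. P-values were adjusted by Benjamini-Hochberg over all genes tested in each comparison and called under 0.05. Standard errors are the log2 fold over the root of F. CPM is the count over the library total, and scaled CPM uses TMM totals with a prior count of 2 for logs. FPKM was used for levels between genes and, as log2(FPKM + 1) or with 0.1, in limma 3.58.1 as an alternative. A library of this depth puts 3 counts at 0.183 to 0.215 CPM. Replicates of a group differed by more than sampling noise in every pair.

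The 36 genes, the further lists, the markers and the split of the libraries were chosen with earlier results of these data known. All 36 genes are named; values in every library are given for Myc, for the gene of each role with the highest and the lowest fold with doxorubicin, and for genes called against the majority. From each further list, up to 4 genes with the smallest p are named. Replicate numbers are the labels' own, and with correlations of -0.117 to 0.405 they were not taken to pair samples. Alternatives were other scalings, filters, DESeq2 1.42.0, limma-voom, FPKM, a replicate block, the split as a term or by part, a threshold of 0.01 and leaving out each library. Fits were tested on simulated data. Promoters came from RefSeq (GRCm38.p6) and similar transcripts from blastn 2.17.0.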

Additional observations from a re-analysis of the deposited data

Results flagged for a closer look

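Single libraries stood apart from the other 3 of their group, by Dixon's criterion, in 7 of 144 group values of the 36 genes, where chance flags about 1 in 20. The criterion was applied to CPM without the TMM scaling used in the tests, and not to scaled CPM. In sham vehicle these were Mybbp1a in replicate 1 (67.33 CPM, others 64.65 to 64.95), Noc3l in replicate 4 (13.57, others 10.43 to 10.91) and Nop2 in replicate 3 (21.68, others 17.11 to 17.64). In sham NMN it was Nop56 in replicate 3 (20.95 CPM, others 24.98 to 25.08). In doxorubicin vehicle these were Wdr75 in replicate 4 (26.95 CPM, others 25.95 to 26.04) and Nop16 in replicate 2 (18.69, others 12.22 to 12.93). In doxorubicin NMN it was Npm1 in replicate 1 (125.4 CPM, others 90.54 to 95.85), the library that was highest for 22 of the 36 genes on unscaled CPM. Some of these flags rest on the lack of scaling. On scaled CPM, Mybbp1a in sham vehicle read 66.71, 64.59, 67.19 and 65.49, with replicate 1 no longer the highest. Wdr75 in doxorubicin vehicle read 25.21, 24.19, 27.13 and 29.04, and Npm1 in doxorubicin NMN 119.8, 88.81, 91.03 and 100.3. Nop2 in sham vehicle kept its gap, at 17.48, 17.46, 22.53 and 17.25.

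The doxorubicin effect differed with NMN, by the interaction test of edgeR, for 18 genes. The effect with NMN less that without it, on the log2 scale, was -3.19 for Myc, -1.383 for Gnl3, -0.789 for Ncl, -0.8733 for Npm1 and -0.9777 for Ddx21. In the snoRNP and polymerase groups it was -0.7117 for Mybbp1a, -0.8694 for Nop58, -0.9048 for Gar1 and -1.129 for Nhp2. Among small subunit factors it was -1.035 for Wdr43, -0.7902 for Wdr75, -1.112 for Nop14 and -1.013 for Rrp12. Among large subunit factors it was -0.7365 for Pes1, -0.7139 for Nle1, -0.6091 for Ftsj3, -0.5048 for Noc2l and -0.9811 for Ppan.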

How the results depend on the processing

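The genes called higher with doxorubicin numbered 29, 25 to 29 with a library left out and 23 to 29 under the other alternatives; those lower with NMN numbered 26, then 22 to 26 and 21 to 26. The 1 gene lower with doxorubicin became 2 with upper-quartile scaling, the replicate block or the split as a term, 0 in the first part and 3 in the second (1 to 2 with a library left out). The 1 gene higher with NMN became 0 on unfiltered FPKM or at an adjusted p under 0.01 and 2 in the second part (1 to 2). In doxorubicin NMN against sham NMN, 5 were higher in the second part, where 5.75% of all genes were. For the interaction, 0 higher became 1 with the replicate block or the split term and 2 in the second part (0 to 1), and 18 lower became 8 in the first part, where 4.45% of all genes were, and 9 under 0.01 (13 to 21). With the replicate block the counts were 28, 25 and 19 for the 3 large groups of calls; the numbers did not pair the samples. The cause was not tested.

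Signs turned for 1 called gene, Wdr12 (0.38 with doxorubicin, -0.00627 in the second part), and for genes that did not pass. With doxorubicin these were Polr1b (-0.106) in the second part, Tcof1 (0.0536) and Nop10 (0.169) in the first, and Utp20 in the second part (0.123) or without replicate 1 of doxorubicin vehicle (0.0553; -0.128 to 0.0553 with a library left out). With NMN, Nop10 gave 0.0234 with upper-quartile scaling, 0.404 in the second part and 0.0109 or 0.039 without replicate 3 or 1 of doxorubicin NMN (-0.183 to 0.039). Utp20 gave 0.0689 with upper-quartile scaling, 0.0179 unfiltered, 0.00705 and 0.00631 on FPKM with 1 and 0.1 added, 0.00435 with only the groups compared, 0.296 in the first part and -0.105 to 0.0906 with a library left out (above 0 from 0.000536), and Rrp9 gave 0.0507 in the first part. In sham mice Myc gave -0.239 in the second part and -0.0829 or -0.0209 without replicate 3 or 1 of sham vehicle (-0.0829 to 0.308), and Grwd1 and Nop10 gave 0.0387 and 0.0446 in the first part.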
